A study of Mus musculus with 5 samples.

Results

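The 6 Pax loci described here are Pax1 (chr2:147185000-147205000), Pax2 (chr19:44826000-44916000), Pax5 (chr4:44540000-44728000), Pax6 (chr2:105505000-105542000), Pax7 (chr4:139288000-139395000) and Pax9 (chr12:57788000-57815000), all in mouse build mm9. They were chosen by gene family and coordinates, with earlier results of these data known. Shares set beside those of the whole series are therefore descriptions. Every listed CpG in these spans that does not lie inside CCGG was used. The CpGs fell into 113 windows of 1 kb, of 115091 such windows in the whole series. Over all 6 loci 53.7% of reads at CpGs were methylated in Fbxl10 T/T embryonic stem (ES) cells, against 9.56% in WT cells. The Polycomb mutants lay near WT, with 13.7% in Ring1B -/-, 9.71% in Eed -/- and 11.4% in Ezh2 -/- cells.

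Methylation was read by reduced representation bisulfite sequencing (RRBS) in mouse ES cells, in 1 library each of Fbxl10 T/T, Ring1B -/-, Eed -/-, Ezh2 -/- and WT. RRBS cuts DNA with MspI at CCGG, keeps short CpG-rich fragments and converts unmethylated cytosines with bisulfite, so a CpG's methylation level is read as the percentage of its reads with a retained C. The series asks whether FBXL10 keeps Polycomb-bound genes from gaining DNA methylation, and the main contrast here is Fbxl10 T/T with WT, followed by each of the 3 Polycomb mutants with WT. With 1 library per genotype there is no replicate check, and each test below compares the reads of 2 libraries, not the genotypes. Fbxl10 T/T and WT cells both carry the strain label C57BL/6J, were grown with serum and LIF on embryonic fibroblast feeders that were removed before use, and were harvested at passage 17. The Ring1B -/-, Eed -/- and Ezh2 -/- cells have no strain or passage label and a shorter culture description that names serum and LIF and no feeders, so their genotype cannot be told apart from strain, passage or culture. The labels do not say how many clones or cultures stand behind a library, and the ES cell label could not be checked against marker genes because the tables hold no expression values.

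Pax genes encode transcription factors with a paired DNA-binding domain that set up organs and cell types in the embryo. Pax1 and Pax9 act in the skeleton and the pharyngeal pouches, Pax2 and Pax5 belong to a subfamily used in kidney, midbrain-hindbrain boundary and B cells, Pax6 directs eye, brain and pancreas development, and Pax7 marks muscle stem cells and neural crest. In ES cells such developmental regulators are classic targets of Polycomb repressive complexes, which keep CpG-rich promoters silent through histone marks while their DNA stays unmethylated. FBXL10 (KDM2B) binds unmethylated CpG-rich DNA through its CXXC zinc finger and recruits a variant Polycomb repressive complex 1. Ring1B is the ubiquitin ligase of that complex, and Eed and Ezh2 are core subunits of Polycomb repressive complex 2.

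The sequences behind the main results are given first, 1 for each locus, 5′ to 3′, with every CpG in capitals. For Pax2, Pax6 and Pax7 they are the 250 bases before a gene start, from RefSeq build GRCm38.p6 (chr19:44756656-44756905, + strand; chr2:105668646-105668895, + strand; chr4:139832969-139833218, − strand). For Pax1 (chr2:147190949-147190979), Pax5 (chr4:44677070-44677094) and Pax9 (chr12:57796586-57796639) they are mm9 + strand stretches that the overlapping 5-base contexts of the deposited tables spell out, inside the window with the largest rise at Pax1 and Pax5 and the window with the smallest rise at Pax9.
Pax1: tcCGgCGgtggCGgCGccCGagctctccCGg
Pax2: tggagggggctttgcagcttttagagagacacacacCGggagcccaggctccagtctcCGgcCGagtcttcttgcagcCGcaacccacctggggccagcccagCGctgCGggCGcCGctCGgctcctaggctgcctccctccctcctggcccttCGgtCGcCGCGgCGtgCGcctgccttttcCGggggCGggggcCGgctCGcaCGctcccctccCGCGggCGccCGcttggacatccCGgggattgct
Pax5: atCGCGccCGCGccCGCGccCGCGc
Pax6: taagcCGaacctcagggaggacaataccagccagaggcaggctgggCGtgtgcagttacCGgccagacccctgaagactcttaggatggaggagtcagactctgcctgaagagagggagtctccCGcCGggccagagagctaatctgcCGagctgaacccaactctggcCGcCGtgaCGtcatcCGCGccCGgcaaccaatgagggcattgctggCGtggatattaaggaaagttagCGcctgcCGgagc
Pax7: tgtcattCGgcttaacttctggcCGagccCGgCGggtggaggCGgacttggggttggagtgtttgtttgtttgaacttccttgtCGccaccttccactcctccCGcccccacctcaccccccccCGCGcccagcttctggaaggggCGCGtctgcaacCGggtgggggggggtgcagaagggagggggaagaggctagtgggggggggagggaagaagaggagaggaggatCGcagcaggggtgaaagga
Pax9: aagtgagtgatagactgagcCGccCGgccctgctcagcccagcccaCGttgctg

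Summed over their CpGs outside CCGG, the printed stretches were methylated in Fbxl10 T/T and nearly free of methylation in WT at 5 of the 6 loci. Printed CpGs inside CCGG are left out of these values, and some were methylated in WT. Examples are 36.4% of 162 WT reads at chr19:44831385 (Pax2) and 41.5% of 53 WT reads at chr2:105508930 (Pax6). In the Pax7 stretch Fbxl10 T/T and WT each listed 4 CpGs outside CCGG. There 68.3% of 101 reads were methylated in Fbxl10 T/T and 0.633% of 158 reads in WT. Only chr4:139389109 and chr4:139389125 were listed in both and hold most of these reads. They stood at 65.3% of 49 and 74% of 50 reads in Fbxl10 T/T, and at 0% and 1.30% of 77 reads each in WT. The Pax6 stretch had 62.7% of 209 reads in Fbxl10 T/T and 2.41% of 374 in WT. At the Pax5 stretch, a run of alternating CpGs, the values were 61.8% of 207 reads in Fbxl10 T/T and 1.83% of 382 in WT. Outside CCGG all 3 stretches were mostly methylated in Fbxl10 T/T and near 0 in WT. The Pax1 stretch had 60.4% of 159 reads in Fbxl10 T/T, 3.57% of 28 in Ring1B -/-, 9.09% of 11 in Eed -/-, 0% of 16 in Ezh2 -/- and 0.794% of 378 in WT. The Pax2 stretch, which holds 25 CpGs in 250 bases, was lower in Fbxl10 T/T than the other rising stretches, at 30.1% of 379 reads, against 0.878% of 911 in WT. Polycomb mutants had few reads there, with 0% of 31 in Ring1B -/-, 4.76% of 63 in Eed -/- and 18.5% of 27 in Ezh2 -/-, and the Pax7 stretch had 0% of 28 reads in Ring1B -/-, 10% of 20 in Eed -/- and 0% of 12 in Ezh2 -/-. The Pax9 stretch was taken from the window with the smallest rise, and those of Pax1 and Pax5 from windows with the largest. This choice enters the split of 5 loci from Pax9, and the stretch does not stand for its locus. Over its whole span the Pax9 locus had 31.1% in Fbxl10 T/T and 8.41% in WT. Over its 2 CpGs outside CCGG, each listed in both libraries, the Pax9 stretch had 9.76% of 41 reads in Fbxl10 T/T and 6.67% of 60 in WT. Most of the Pax promoters hold more CpGs than the usual mouse promoter: the RefSeq entries, each running from 250 bases before a start to 50 after it, held 30 and 23 CpGs at the Pax2 starts that could be placed in mm9, 23 at Pax5, 18 and 16 at Pax6 and 17 at Pax7, against a median of 7 over all 32851 mouse entries. Of the entries that were not placed, those of Pax1 and Pax9 held 13 and 11, and the third of Pax2 and that of Pax8, which is no member, held 7 each, at the median.

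Over its whole span each Pax locus was more methylated in Fbxl10 T/T cells than in WT cells. Pax6 stood at 61.6% in Fbxl10 T/T (95% exact interval 59.6 to 63.5, 2417 reads at 84 CpGs) and at 13.4% in WT (12.4 to 14.4, 4478 reads at 86 CpGs). Pax5 stood at 60.0% in Fbxl10 T/T and 9.12% in WT. Pax1 stood at 55.8% in Fbxl10 T/T and 12.7% in WT. These 3 loci gained 48.2, 50.8 and 43.0 percentage points, in the order given. Pax7 stood at 54.9% in Fbxl10 T/T and 8.62% in WT, a difference of 46.3 points (44.5 to 48.1). Pax2 stood at 45.5% in Fbxl10 T/T and 7.73% in WT, a difference of 37.8 points (36.0 to 39.6). Pax9 stood at 31.1% in Fbxl10 T/T and 8.41% in WT, a difference of 22.7 points (19.4 to 26.1), and its interval lay below those of the other 5 loci. The WT levels lay between 7.73% and 13.4%, so the loci were more alike in WT than in Fbxl10 T/T. Over all 6 loci the difference was 44.1 points (43.3 to 45.0), against 7.39 points over all CpGs of the series, where Fbxl10 T/T stood at 21.0% and WT at 13.6%. Reads that cover neighbouring CpGs are not independent, so these intervals cover counting error only and are too narrow.

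**Figure D1:**
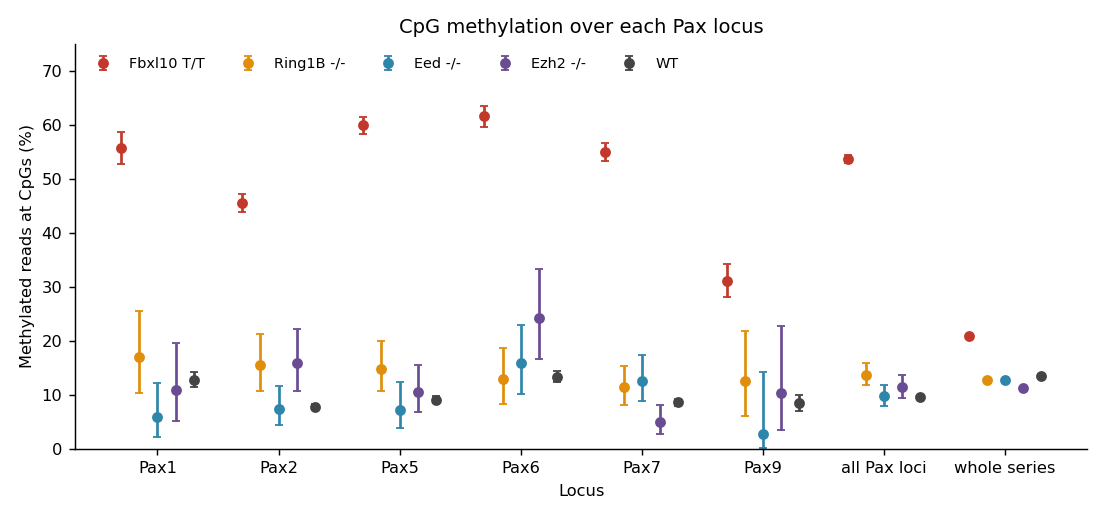
Percent of reads methylated at CpGs outside CCGG over each Pax locus, over all 6 loci and over the whole series, with 1 point per library and 95% exact intervals for counting error. The Fbxl10 T/T point stands above the other 4 libraries at each locus, from 31.1% at Pax9 to 61.6% at Pax6.

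Most measured windows of the Pax loci rose, with Pax9 the exception, where 1 of 2 did. A window was measured when it held at least 5 CpGs and 30 reads in each library, and counted as risen or fallen when the libraries differed by 20 percentage points or more and Fisher's exact test gave an adjusted p under 0.05 (two-sided, Benjamini-Hochberg adjustment over all measured windows). Of the 33 Pax windows measured, 29 rose, where 25.6% of all 20312 measured windows rose. 1 Pax window fell, where 2.68% of all windows fell. The median difference was 46.2 points over the Pax windows and 0.315 points over all windows. The 33 windows ranged from 13.5% to 69.4% in Fbxl10 T/T (SD 11.7 over windows) and from 0.902% to 87.8% in WT (SD 19.6). Coverage set how much of a locus could be seen, since 80 of the 113 listed windows had too few CpGs or reads to be measured.

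**Figure D2:**
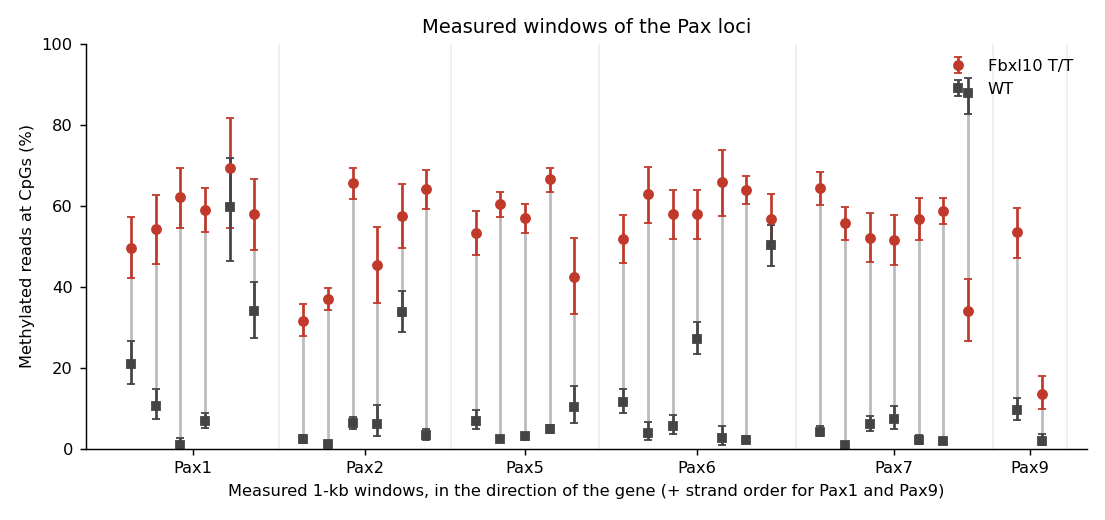
Percent of reads methylated in each of the 33 measured 1-kb windows, grouped by locus, in Fbxl10 T/T (circles) and WT (squares), with 95% exact intervals for counting error and a grey line joining the pair. Most pairs run between a WT level near 0 and a Fbxl10 T/T level of 50% or more, and the last Pax7 window is the only pair with WT on top, at 34.0% in Fbxl10 T/T and 87.8% in WT.

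The rise was clearest where WT cells had almost no methylation. Of the 23 measured Pax windows below 10% in WT, 22 rose, where 21.4% of all 16065 such windows rose. Their medians were 58.0% in Fbxl10 T/T and 3.40% in WT. In Fbxl10 T/T, 19 of these 23 windows stood at 50% or more, against 2332 of 16065 (14.5%) over the series. The window that did not pass was chr12:57796001-57797000 at Pax9, at 13.5% in Fbxl10 T/T and 1.90% in WT, a difference of 11.6 points (Fisher's exact test, adjusted p = 6.87e-09, under the size limit). Of the 9 Pax windows between 10% and 70% in WT, 7 rose, where 63.3% of all such windows rose, so here the Pax share was close to that of other windows. The 2 that did not pass were at Pax1, 69.4% in Fbxl10 T/T and 59.7% in WT, and at Pax6, 56.7% in Fbxl10 T/T and 50.3% in WT. These classes use the WT level, which also enters the difference.

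**Figure D3:**
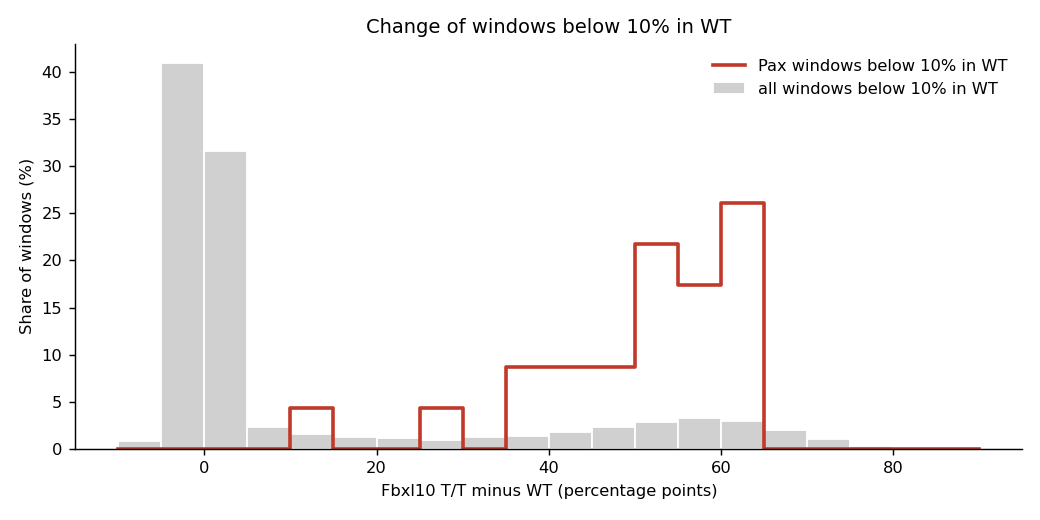
Share of windows (y axis, %) by difference between Fbxl10 T/T and WT (x axis, percentage points, in bins of 5), for the 23 Pax windows (line) and all 16065 windows (bars) below 10% in WT. The bars have a tall peak around 0 and a low hump near 55 to 60 points, and 21 of the 23 Pax windows lie between 35 and 65 points, with 1 at 11.6 and 1 at 29.3.

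The gene starts of Pax2, Pax6 and Pax7 were among the windows that rose. A start was placed in mm9 only where the RefSeq promoter matched the contexts of the tables without a differing base, which gave 2 starts for Pax2 (chr19:44830242 and chr19:44831396), 1 for Pax5 (chr4:44723566), 2 for Pax6 (chr2:105509053 and chr2:105522620) and 1 for Pax7 (chr4:139388883). Of the windows that overlap the 1 kb on either side of these starts 7 were measured, and all 7 rose. Over all placed starts 18.3% of the 9807 such windows rose. At Pax7 the 3 windows stood at 64.3%, 55.7% and 52.2% in Fbxl10 T/T, against 4.27%, 0.902% and 6.00% in WT. In the last of them the CpGs with at least 10 reads in both libraries lie 1103 to 1228 bases downstream of the start. The strand-opposed gene Gm46873 starts at chr4:139389383, so the first 2 of these windows also lie within 1 kb of its start. At Pax6 the 2 windows of the first start stood at 62.9% and 58.0% in Fbxl10 T/T, against 3.99% and 5.69% in WT. The Pax6 second start had no measured window, and the window of the Pax5 start had 4 CpGs in Fbxl10 T/T and none in WT. The starts of Pax1 and Pax9 and the third Pax2 start were not placed and are not analysed here.

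At Pax2 the start windows had the lowest Fbxl10 T/T levels of the 6 measured windows. The windows chr19:44830001-44831000 and chr19:44831001-44832000 hold the 2 starts and stood at 31.7% (27.8 to 35.8, 546 reads) and 37.0% (34.4 to 39.7, 1293 reads) in Fbxl10 T/T, against 2.35% and 1.25% in WT. The window chr19:44833001-44834000, 2 windows downstream, stood at 65.6% (61.7 to 69.4, 599 reads) in Fbxl10 T/T and 6.32% in WT. The window chr19:44910001-44911000, which holds the start of the transcript 1700039E22Rik, stood at 64.2% (59.3 to 68.9, 402 reads) in Fbxl10 T/T and 3.40% in WT. Their Fbxl10 T/T intervals lie above those of both start windows. The window chr19:44834001-44835000 stood at 45.3% in Fbxl10 T/T, with an interval of 36.1 to 54.8 from 117 reads that overlaps that of the second start window only, and at 6.15% in WT. The sixth measured window, chr19:44835001-44836000, stood at 57.6% in Fbxl10 T/T and 33.8% in WT and had the smallest difference of the 6, at 23.8 points. Over the series 17.2% of single CpGs below 10% in WT rose, called at a difference of 25 points or more with an adjusted p under 0.05 in Fisher's exact test and 10 or more reads in each library. Of the 49 Pax2 CpGs within 500 bases of a start that were below 10% in WT, 32 rose, and their median was 30.6% in Fbxl10 T/T and 1.10% in WT. Of the 15 such Pax2 CpGs at 1.5 to 15 kb from a start 13 rose, with a median of 52.9% in Fbxl10 T/T and 4.44% in WT. At Pax7 all 24 such CpGs within 500 bases rose, with a median of 63.6% in Fbxl10 T/T and 0.450% in WT, and at Pax6 all 9 rose, with medians of 63.6% in Fbxl10 T/T and 0% in WT.

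**Figure D4:**
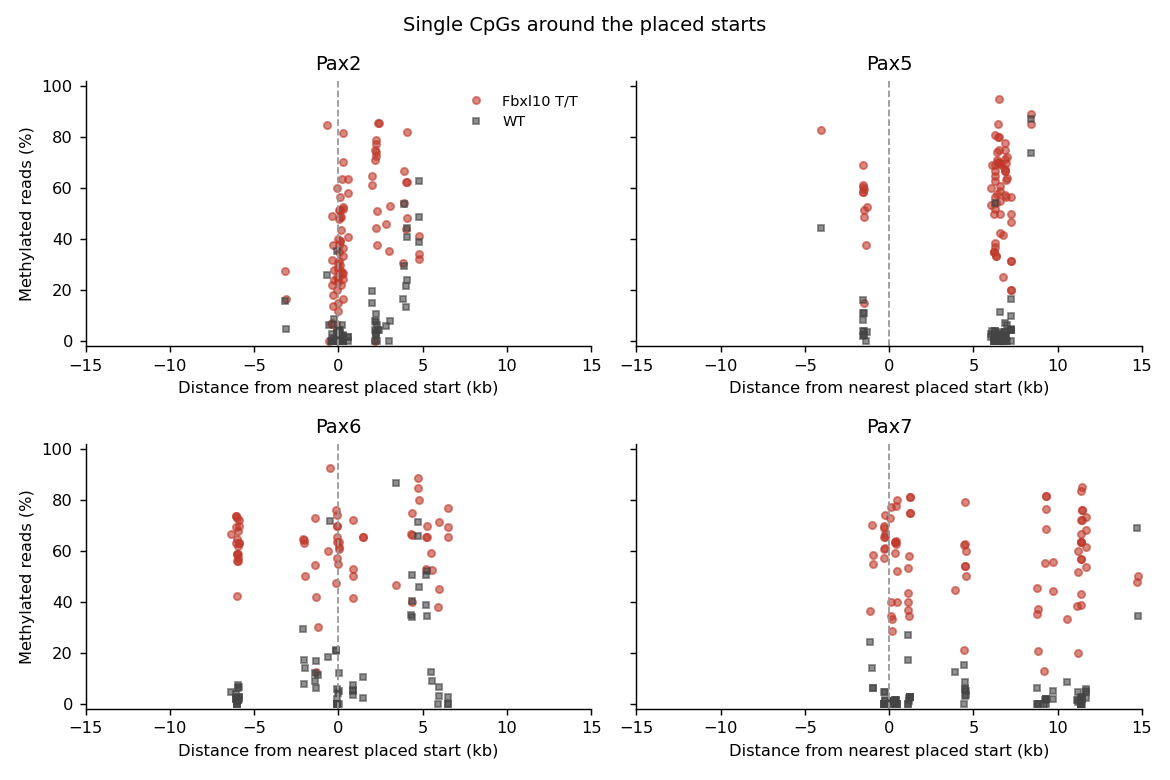
Percent of reads methylated at single CpGs with at least 10 reads in both libraries, by distance in kb from the nearest placed start of the gene (dashed line, negative upstream), in Fbxl10 T/T (circles) and WT (squares). Around the Pax2 starts many Fbxl10 T/T points lie between 20% and 50%, whereas at Pax6 and Pax7 most lie between 50% and 80%, and most WT points near the starts lie below 10%.

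Windows away from the placed starts of the Pax genes rose as well, and the largest rises of Pax2, Pax5 and Pax6 were in such windows. That of Pax2, chr19:44910001-44911000, holds the start of the transcript 1700039E22Rik. At Pax5, the regulator of B cell identity, the 3 largest lay downstream of the placed start, and a window 1.94 kb upstream, chr4:44725001-44726000, also rose, at 53.3% in Fbxl10 T/T and 6.98% in WT. The window chr4:44677001-44678000 stood at 66.5% (63.5 to 69.5, 977 reads) in Fbxl10 T/T and 4.88% (2110 reads) in WT (Fisher's exact test, adjusted p = 9.63e-296). Its neighbours in rank, chr4:44717001-44718000 and chr4:44716001-44717000, stood at 60.4% and 56.9% in Fbxl10 T/T, against 2.50% and 3.04% in WT. They lie 6.07 and 7.07 kb downstream of the start, measured from their middles, and the first-ranked window lies 46.1 kb downstream. At Pax6 the windows chr2:105515001-105516000 and chr2:105516001-105517000 stood at 65.9% and 64.1% in Fbxl10 T/T, against 2.62% and 2.29% in WT. At Pax7 the window chr4:139377001-139378000, 11.4 kb downstream of the start, stood at 58.8% in Fbxl10 T/T and 1.98% in WT. At Pax1 no start was placed, so how far its windows lie from the start is not known. There the window chr2:147190001-147191000 had the largest rise, at 62.2% in Fbxl10 T/T and 1.03% in WT. Its neighbour chr2:147191001-147192000 stood at 59.0% in Fbxl10 T/T and 6.86% in WT, and chr2:147188001-147189000 stood at 54.2% in Fbxl10 T/T and 10.7% in WT. All these windows rose. Apart from the upstream Pax5 window, they were named because they were among the 3 largest rises of their locus. That they rose is therefore no separate result.

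Pax9 had the smallest gain of the 6 loci. Its 2 measured windows lie 4 kb apart: chr12:57792001-57793000 stood at 53.4% (47.2 to 59.6, 262 reads) in Fbxl10 T/T and 9.55% in WT, and chr12:57796001-57797000 stood at 13.5% (9.75 to 18.1, 281 reads) in Fbxl10 T/T and 1.90% in WT. The first passed the test (difference 43.9 points, Fisher's exact test, adjusted p = 1.16e-37) and the second did not reach the size limit. Of its 15 CpGs below 10% in WT, 6 rose, beside the 17.2% over the series, with a median of 21.2% in Fbxl10 T/T and 1.30% in WT.

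By the same rule, single CpGs of all 6 loci were counted. Of 453 Pax CpGs tested, 336 rose and 18 fell, where 16.5% and 4.35% of all 368305 CpGs rose and fell. Of the 333 CpGs below 10% in WT, 289 rose, where 17.2% of all such CpGs rose. By locus these were 44 of 44 at Pax6, 14 of 15 at Pax1, 95 of 103 at Pax5, 70 of 76 at Pax7, 60 of 80 at Pax2 and 6 of 15 at Pax9.

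Falls were frequent at CpGs that WT cells had methylated. Of the 25 Pax CpGs at 70% or more in WT, 16 fell, where 28% of all such CpGs fell, and none rose. At Pax7 9 of 10 fell, and the 10 lie in 5 windows. They ranged from 9.09% to 62.5% in Fbxl10 T/T and from 71.4% to 100% in WT, without overlap, in a class set by the WT level. At Pax2 3 of 3 fell, at Pax5 3 of 8, at Pax6 1 of 3 and at Pax1 0 of 1. The only measured window at 70% or more in WT was chr4:139336001-139337000 at Pax7, downstream of the start by 52.4 kb. It stood at 34.0% (26.6 to 42.0, 156 reads) in Fbxl10 T/T and 87.8% (82.8 to 91.7, 229 reads) in WT, a difference of -53.8 points (Fisher's exact test, adjusted p = 1.23e-27), where 31.1% of all windows at 70% or more in WT fell.

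The loci of the Polycomb mutants stayed near WT within wide limits. These libraries had 989848 to 1106253 reads at CpGs outside CCGG and a median of 2 or 3 reads per CpG, against 15850683 reads and a median of 25 in Fbxl10 T/T and 25424859 reads and a median of 37 in WT. At CpGs listed in both libraries, the 6 loci together stood at 13.7% in Ring1B -/- and 8.73% in WT, a difference of 5.00 points (3.08 to 7.15). They stood at 9.72% in Eed -/- and 8.92% in WT, a difference of 0.796 points (-0.998 to 2.91). They stood at 11.3% in Ezh2 -/- and 8.98% in WT, a difference of 2.28 points (0.352 to 4.51). The interval for Eed -/- spans 0 and the other intervals do not, and all 3 upper bounds are below the rise in Fbxl10 T/T. Over the whole series, at CpGs listed in both libraries, the differences from WT were 0.579 points in Ring1B -/-, 0.424 in Eed -/- and -1.16 in Ezh2 -/-. The small differences over the Pax loci depend on the setting. Over all CpGs with at least 10 reads in their own library they were -0.672 points in Ring1B -/-, -4.04 in Eed -/- and 5.66 in Ezh2 -/-. The sign thus changed in Ring1B -/- and Eed -/- and not in Ezh2 -/-. That limit was applied to each library on its own, so the CpGs compared changed along with the depth. No Pax window was measured in a Polycomb mutant under it. Cytosines outside CpGs over the same loci, which read incomplete conversion as well as methylation, showed C in 2.60% of Ring1B -/- reads, 2.85% of Eed -/- reads and 1.60% of Ezh2 -/- reads, against 0.762% of WT reads, and in 0.701% of Fbxl10 T/T reads. The part of this background in the differences was not tested. The 4 comparisons share the WT library and are not independent of each other.

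No Pax window passed the test in a Polycomb mutant. In Ring1B -/- 0 of 11 measured Pax windows rose and 0 fell, where 1.33% and 0.562% of all 8723 windows did. In Eed -/- 0 of 9 rose and 0 fell, where 0.372% and 0.678% of all 9146 windows did. In Ezh2 -/- 0 of 10 rose and 0 fell, where 0.269% and 0.854% of all 8552 windows did. With so few windows, 0 is near what these shares give. By the adjusted p of Fisher's exact test alone, at any size, 4 of 11 Pax windows passed in Ring1B -/-, all higher, where 13.6% of all windows passed. In Eed -/- 1 of 9 passed, where 12.2% of all did, and in Ezh2 -/- 2 of 10, where 7.82% of all did; an unadjusted p under 0.05 was reached by 4, 1 and 3 windows. The window with the largest difference in Ring1B -/- and in Ezh2 -/- was chr19:44833001-44834000 at Pax2, at 65.6% in Fbxl10 T/T, 20.4% of 54 reads in Ring1B -/-, 7.69% of 52 in Eed -/-, 24.4% of 45 in Ezh2 -/- and 6.32% of 1186 in WT. It differed from WT by 14.0 points in Ring1B -/- (adjusted p = 0.00975) and by 18.1 points in Ezh2 -/- (adjusted p = 0.00478, both by Fisher's exact test). In Eed -/- the largest difference was at the Pax7 window chr4:139389001-139390000, with 14.6% of 48 reads in Eed -/- and 4.27% in WT (10.3 points, Fisher's exact test, adjusted p = 0.0478). The Pax2 start window chr19:44831001-44832000 stood at 8.75% of 80 reads in Ezh2 -/- and 1.25% in WT (Fisher's exact test, adjusted p = 0.00408). At Pax5, chr4:44717001-44718000 stood at 11.5% of 113 reads in Ring1B -/- and 2.50% in WT (Fisher's exact test, adjusted p = 0.000395). At Pax7, chr4:139377001-139378000 stood at 11.5% of 52 reads in Ring1B -/- and 1.98% in WT (Fisher's exact test, adjusted p = 0.0102). The Pax7 window chr4:139388001-139389000 stood at 5.26% of 95 reads in Ring1B -/- and 0.902% in WT (Fisher's exact test, adjusted p = 0.0317). Cytosines outside CpGs showed C in 5.78% of Ring1B -/- reads and 0.739% of WT reads over the Pax5 locus. Over the Pax2 locus the values were 2.53% in Ring1B -/- and 0.481% in WT. Over the Pax7 locus they were 1.93% (1.24 to 2.85) in Ring1B -/- and 1.27% (1.13 to 1.42) in WT, with overlapping intervals.

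Across the 7 windows measured in every comparison, the 5 libraries separate into 1 high and 4 low. Fbxl10 T/T ranged from 37.0% to 65.6% with a median of 58.8%. Ring1B -/- ranged from 0% to 20.4% with a median of 5.26%, Eed -/- from 0% to 14.6% with a median of 2.50%, Ezh2 -/- from 0% to 24.4% with a median of 2.25%, and WT from 0.902% to 6.32% with a median of 2.50%. The lowest Fbxl10 T/T window lay above the highest window of each of the other libraries. How often windows of the series separate in this way was not counted. All 7 lay below 10% in WT, a class in which 21.4% of all 16065 measured windows rose in Fbxl10 T/T. At the Pax7 start window chr4:139388001-139389000, for example, 55.7% of Fbxl10 T/T reads were methylated, and 5.26% of Ring1B -/- reads, 3.45% of Eed -/- reads, 2.25% of Ezh2 -/- reads and 0.902% of WT reads.

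Genes that act with Pax proteins split into those that gained and those that did not. Eya and Dach proteins form a network with Pax factors in eye, kidney and muscle, in which Eya proteins are coactivators of DNA-binding partners such as Six2. The partner genes with a start placed in mm9 were Six2, Six4, Six5, Six6, Eya3, Eya4 and Dach1, and 8 of the 14 measured start windows of these 7 genes rose, beside the 18.3% of windows at any placed start, and 0 fell. The risen windows lay at 4 genes, of which Dach1 had 1 risen window of 2 and stood at 15.1% in Fbxl10 T/T and 11.4% in WT within 1 kb of its start. Six2, which keeps kidney progenitors undifferentiated, had the largest rise within 1 kb of its start, at 62.3% in Fbxl10 T/T and 4.29% in WT. Six6, an eye and pituitary regulator, stood at 50.2% in Fbxl10 T/T and 1.65% in WT. Six4 and Eya3 had the smallest changes. Six4 stood at 0.723% in Fbxl10 T/T and 0.813% in WT, and Eya3 at 0% of 502 reads in Fbxl10 T/T, with an upper exact bound of 0.732%, and 0.522% of 767 reads in WT. No start of Pax3, Pax4 or Pax8 was placed, and these genes are not analysed here. Pax2, Pax6 and Pax7 stood at 35.7%, 62.5% and 59.2% within 1 kb of their placed starts in Fbxl10 T/T, against 1.93%, 9.22% and 1.52% in WT.

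**Figure D5:**
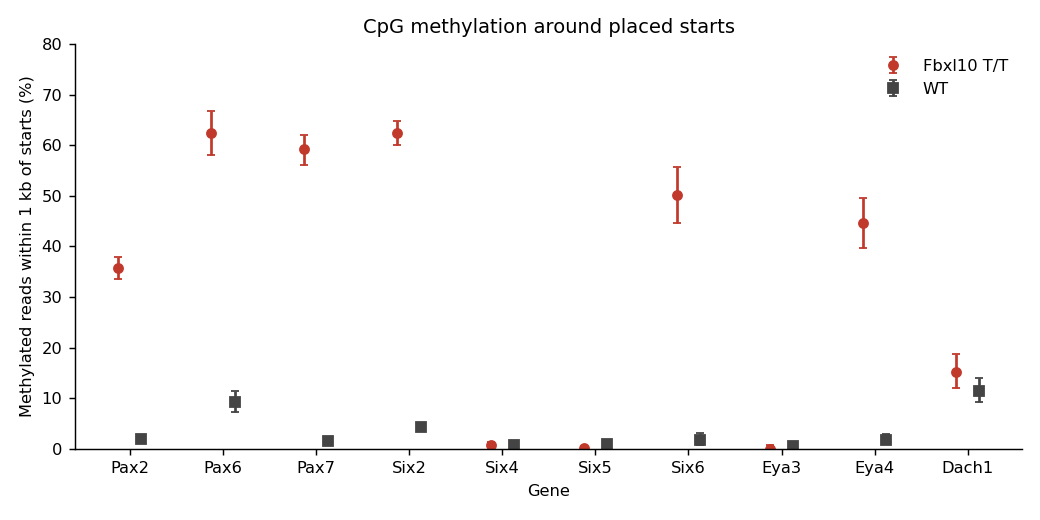
Percent of reads methylated at CpGs outside CCGG within 1 kb of placed starts, in Fbxl10 T/T (circles) and WT (squares), for Pax2, Pax6, Pax7 and the 7 partner genes with a measured start window, with 95% exact intervals for counting error. Pax2, Pax6, Pax7, Six2, Six6 and Eya4 stand apart from WT, and Six4, Six5 and Eya3 stand near 0 in both libraries, and the Dach1 intervals overlap.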

How the data were processed

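RRBS libraries of 5 mouse ES cell lines were read from 1 table each. Per the submitters' processing notes, the authors used BSMAP 2.74 and build mm9; read trimming, duplicate removal and any depth filter are not given in the sources used here. Per the file headers, the deposited tables give raw counts of reads per cytosine (reads showing C, and reads showing C or T). The deposited expected counts are, per the file headers, C-or-T reads that the authors scaled with opposite-strand reads, and the deposited fraction is C reads over these expected counts. Each CpG has 1 entry, on the + strand, that holds the reads of both strands.

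Levels are summed C reads over C-or-T reads at CpGs outside CCGG, because MspI cuts there. Windows of 1 kb and single CpGs on the 19 autosomes and X were tested as stated in the report, on the whole tables, after the tests had been checked on simulated data. Intervals are 95% exact Clopper-Pearson, or Newcombe for differences. Samples were grouped by the genotype label. Depth at CpGs outside CCGG was 15850683 reads for Fbxl10 T/T, 1051100 for Ring1B -/-, 1106253 for Eed -/-, 989848 for Ezh2 -/- and 25424859 for WT. Gene starts came from RefSeq promoter entries (GRCm38.p6), placed in mm9 by matching their letters to the tables' 5-base contexts within 3 Mb (at least 10 matching contexts, no differing base, 1.5 times the next best place); 10482 of 32619 entries were placed, and no coordinate was converted between builds. Within each locus the text names the windows that overlap 1 kb on either side of a placed start, the 3 largest rises and the largest fall in Fbxl10 T/T. Windows outside that rule are named as exceptions to a count or to complete a locus, and were chosen after their values were seen. The members, lists and settings were chosen with earlier results of these data known. Python 3.11.15, scipy 1.17.1, numpy 2.4.6, pandas 2.3.3 and matplotlib 3.10.9 were used. Alternatives covered depth, CCGG CpGs, shared CpGs, window size and offset, minimum CpGs and the size limits.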

Additional observations from a re-analysis of the deposited data

Results flagged for a closer look

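Signals in data that the comparisons do not use stood above WT over the Pax loci. CpGs inside CCGG, which were left out because MspI cuts there, were methylated in 60.4% of Fbxl10 T/T reads, 44.0% of Ring1B -/- reads, 47.9% of Eed -/- reads and 44.6% of Ezh2 -/- reads, against 36.7% of WT reads, with intervals that do not reach the WT interval. Every mutant library also lay above WT at such CpGs over the whole series. There the WT level was 46.3%. The Ezh2 -/- level was 47.5%, that of Fbxl10 T/T was 48.0%, and Eed -/- and Ring1B -/- both reached 50.7%. Cytosines outside CpGs showed C in 2.60% of Ring1B -/- reads, 2.85% of Eed -/- reads and 1.60% of Ezh2 -/- reads, against 0.762% of WT reads, with intervals above that of WT. The same held over all chromosomes, with 2.62% of Ring1B -/- reads, 2.83% of Eed -/- reads and 2.10% of Ezh2 -/- reads, against 1.02% of WT reads. The causes were not tested.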

How the results depend on the processing

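With 1 library per genotype no paired analysis was possible and no replicate could be left out. Under the 9 alternatives that bear on a locus sum, the differences of the 6 loci between Fbxl10 T/T and WT were positive (54 of 54, 18.5 to 51.7 points), and of 286 recomputed values of named windows 284 kept their direction and side of the threshold. The Pax2 window at 44830001 (29.3 points) missed a limit of 30 points, and the Pax9 window at 57796001 (11.6 points) passed a limit of 10. With CCGG CpGs kept, the difference over all loci was 35.6 points, and 5 of 53 windows fell, beside 3681 of all 35184. At CpGs listed in all 5 libraries 12 of 13 windows rose and 0 fell, beside 2240 and 38 of all 9986. The mean over CpGs gave 37.8 points. With at least 3 CpGs 2 of 41 windows fell, beside 2567 of all 28857. With at least 10 CpGs 17 of 17 rose and 0 fell, beside 3233 and 24 of all 13195. The Polycomb differences moved with the setting. The limit on reads per CpG was applied to each library on its own, so it also changed which CpGs were compared. Ring1B -/- minus WT was 4.13 points over all listed CpGs, 6.30 with CCGG CpGs kept, 1.15 as a mean over CpGs and -0.672, the other sign, with at least 10 reads per CpG. Eed -/- minus WT was 0.148, and 7.11, -5.77 and -4.04 in these settings. Ezh2 -/- minus WT was 1.85, and 5.76, -2.64 and 5.66. A limit of 10 points called 1 Pax window higher in each Polycomb mutant. Over all windows it called 343 of 8723 higher in Ring1B -/-, 233 of 9146 in Eed -/- and 151 of 8552 in Ezh2 -/-. With CCGG CpGs kept 1 of 12 Pax windows rose in Eed -/-, beside 214 of all 13457. In Ezh2 -/- 1 of 9 rose at CpGs listed in all libraries, beside 15 of all 7183. As a mean over CpGs 1 of 10 rose in Ezh2 -/-, beside 50 of all 8552. Settings added after seeing the data left 298 of 378 single Pax CpGs rising at 20 reads and 480 of 774 with CCGG CpGs kept. In the main setting 336 of 453 rose. Over the series 15.8% of CpGs rose at 20 reads, 13.9% with CCGG CpGs kept and 16.5% in the main setting. The causes were not tested. At 2 or 3 reads per CpG the Polycomb libraries resolve sums over windows or loci, not single CpGs.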
